A study of Mus musculus with 30 samples.

Results

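Trunk tissue of E10.5 mouse embryos was compared between the Gzf1 knockout and the wild type at 3 bisulfite amplicons of the imprinted Dlk1-Dio3 domain. The material was chosen by its library names, which give tissue, genotype and amplicon, and it makes up 6 of the 30 libraries of the series. A Gzf1 knockout library and a wild-type library were present for the IG-CGI, the IG-TRE and the Gtl2-DMR, so that each side of each comparison had 1 library and no difference below has a replicate check. The design of the knockout allele, the strain, the sex and the number of embryos are not given in the labels, nor do they say whether the amplicons of a genotype came from the same DNA. Amplicon reads do not measure expression, so the genotype and the tissue rest on the labels. Mouse embryonic stem cells (mESC, line V6.5) and adult tail, each with Gzf1 knockout and wild-type libraries, served as comparison, mainly in the last part.

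The Dlk1-Dio3 domain is an imprinted gene cluster. Its paternal copy normally carries methylation at the intergenic control region (IG-DMR) and expresses Dlk1 and Dio3, and its maternal copy is unmethylated there and expresses long non-coding RNAs, among them Meg3, also called Gtl2. The IG-CGI is the CpG-rich part of that control region, the IG-TRE is its transcriptional regulatory element, and the Gtl2-DMR is a secondary differentially methylated region at the start of Meg3. Gzf1 is a zinc finger protein, and the study asked how its loss affects methylation of this domain.

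The Gtl2-DMR amplicon was placed on the genome through the spacing of its CpGs, because the start of Meg3 is where its change can be read against a gene. Of its 15 CpGs, 13 fell within the RefSeq promoter window of Meg3 at an offset of 9 bases, and the window held no other CpG within the span of the amplicon. The next best of the 29 promoter windows searched in the domain matched 6 CpGs. The window is chr12:109540746-109541045 of GRCm38.p6 on the plus strand, with 250 bases before the annotated start of the Meg3 gene at 109540996 and 50 from it on. In the sequence below, from RefSeq, the capitals mark the 13 CpGs, which are the amplicon positions 33 to 296 in order.
Meg3 promoter: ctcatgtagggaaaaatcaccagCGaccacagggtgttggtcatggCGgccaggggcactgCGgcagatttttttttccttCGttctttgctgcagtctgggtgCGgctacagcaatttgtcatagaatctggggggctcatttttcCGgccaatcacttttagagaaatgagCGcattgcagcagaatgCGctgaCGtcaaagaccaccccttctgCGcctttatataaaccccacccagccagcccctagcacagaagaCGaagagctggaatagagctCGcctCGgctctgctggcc
The first 10 of these CpGs lie upstream of the annotated start, and CpG 271, CpG 291 and CpG 296 lie 11, 31 and 36 bases downstream of it. CpG 334 and CpG 339 lie beyond the window. The other two amplicons could not be placed in this way, and their CpGs are named by position on the amplicon reference.

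Reads with CpG calls numbered 1865 in the Gzf1 knockout and 1369 in the wild-type library of the IG-CGI, 343 and 338 at the IG-TRE, and 69 and 64 at the Gtl2-DMR. As a percentage of the highest running number among the reads of the library, these were 37.3% and 27.4%, 6.88% and 6.76%, and 1.38% and 1.28%. Why the other numbers had no calls, and whether the reads with calls are a fair sample, was not tested. The amplicons held 29, 7 and 15 CpGs. Within each amplicon both libraries came from the same sequencing order, as the read names show, and the IG-TRE pair came from another order than the other pairs. A methylation level is the percentage of the calls at a CpG that are methylated, and averaging these percentages over the CpGs gave the mean level. Intervals of mean levels treat the read as the unit. They and all other intervals cover counting error only, because PCR copies carried no molecular identifiers and reads need not be independent molecules.

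Without Gzf1 the trunk was more methylated at all 3 amplicons, and the 3 knockout libraries ended between 85.9% and 88.8%. At the IG-CGI the mean level was 85.9% in the knockout (95% interval 85.0 to 86.9) and 45.1% in the wild type (42.7 to 47.4), a gain of 40.8 points (38.3 to 43.4). At the IG-TRE it was 86.8% in the knockout (84.8 to 88.8) and 63.7% in the wild type (59.9 to 67.6), a gain of 23.1 points (18.7 to 27.4). At the Gtl2-DMR it was 88.8% in the knockout (84.5 to 93.0) and 58.0% in the wild type (47.7 to 68.3), a gain of 30.8 points (19.7 to 41.9).

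The sizes of the gains were then compared between amplicons by a two-sided z test over reads, adjusted over the 3 pairs, which sets libraries and not genotypes against each other. The gain at the IG-CGI exceeded that at the IG-TRE by 17.8 points (95% interval 12.7 to 22.8) and passed the test at 0.05. The gain at the Gtl2-DMR lay between them and was not told apart from either. It was 7.75 points above the IG-TRE (interval -4.21 to 19.7), and the IG-CGI was 10.03 points above it (interval -1.40 to 21.5).

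The amplicons were then compared within each genotype. In the knockout, the IG-CGI minus the IG-TRE was -0.87 points (95% interval -3.11 to 1.36), the Gtl2-DMR minus the IG-TRE 1.98 points (-2.71 to 6.67), and the Gtl2-DMR minus the IG-CGI 2.85 points (-1.48 to 7.18). In the wild type, the IG-CGI lay 18.6 points below the IG-TRE (difference -18.6, interval -23.2 to -14.1). The wild-type Gtl2-DMR lay 12.9 points above the IG-CGI (interval 2.30 to 23.5) and was not told apart from the IG-TRE (difference -5.77, interval -16.8 to 5.23).

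Completeness was expressed as the gain divided by the room above the wild-type level, with full methylation counted as reachable at every amplicon. Of the methylation missing in wild type, the knockout had gained 74.3% at the IG-CGI (95% interval 72.3 to 76.4), 63.6% at the IG-TRE (56.8 to 70.4) and 73.3% at the Gtl2-DMR (61.3 to 85.3). The IG-CGI exceeded the IG-TRE by 10.8 points of completeness (3.68 to 17.9). The Gtl2-DMR differed from the IG-CGI by -1.07 points (-13.2 to 11.1). Even wild-type reads with 5 calls or more and at least 70% of them methylated had a mean level below full methylation. This level was 94.7% at the IG-CGI, 90.3% at the IG-TRE and 91.7% at the Gtl2-DMR. Whether the order of the amplicons in completeness holds against such lower ceilings was not tested. Unmethylated calls remained at all 3 amplicons, at a mean of 14.1% of calls per CpG in the knockout against 54.9% in the wild type at the IG-CGI, 13.2% against 36.3% at the IG-TRE and 11.2% against 42.0% at the Gtl2-DMR. These sizes depended on how repeated read patterns were counted. With identical patterns counted once, the gains were 25.7 points at the IG-CGI, 15.6 at the IG-TRE and 27.9 at the Gtl2-DMR, and the completeness was 54.4%, 35.4% and 64.9%.

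**Figure D1:**
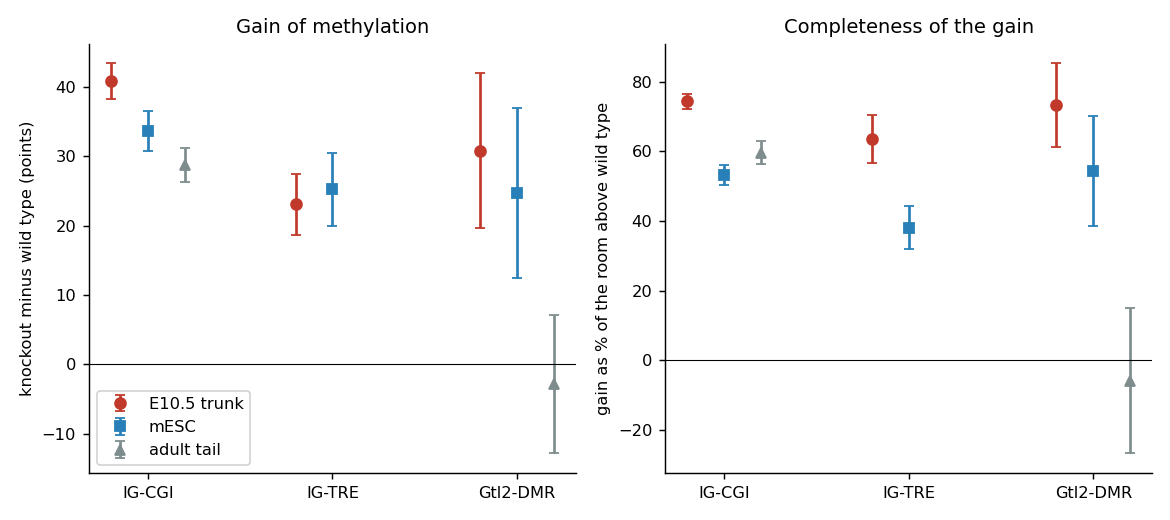
Gain of methylation, Gzf1 knockout minus wild type in points (left), and the gain as a percentage of the room above the wild-type level (right), for 3 amplicons in E10.5 trunk, mESC and adult tail. Points are means over CpGs of 1 library pair and bars are 95% intervals over reads. In trunk the gain was 40.8 points at the IG-CGI, 23.1 at the IG-TRE and 30.8 at the Gtl2-DMR, and the completeness 74.3%, 63.6% and 73.3%.

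Each CpG was compared by Fisher's exact test (two-sided), with Benjamini-Hochberg adjustment over the CpGs of its amplicon. It was called at an adjusted p below 0.05 together with a difference of 20 points or more. These tests compare the libraries, not the genotypes. At the IG-CGI 29 of 29 CpGs were higher in the knockout (100%), at the IG-TRE 5 of 7 (71.4%) and at the Gtl2-DMR 11 of 15 (73.3%). No CpG was lower in any of the 3 amplicons, and by value every CpG lay above wild type.

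At the IG-CGI the levels were spread wider over the CpGs in the knockout than in the wild type, without scaling to the mean level. Knockout levels ran from 71.2% to 96.8% (SD over CpGs 5.46), against 36.8% to 49.3% in wild type (SD 2.71). CpG 77 had the largest rise, with 95.2% in the knockout and 44.6% in the wild type, a difference of 50.6 points (Newcombe interval 47.7 to 53.4, Fisher's exact test, adjusted p = 4.53e-238). CpG 59 was the highest of the knockout, at 96.8% against 48.3% in wild type, and with CpG 55, CpG 72 and CpG 77 it made up a stretch at the start of the amplicon where the knockout was at 93.6% to 96.8%.

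CpG 131 was the lowest in both libraries and had the smallest rise, with 71.2% in the knockout against 36.8% in the wild type (34.3 points, interval 30.9 to 37.6, adjusted p = 4.06e-82 by Fisher's exact test). The knockout was under 80% at 3 CpGs, namely CpG 108 at 79.3%, CpG 131 and CpG 149 at 76.0%, against 42.0%, 36.8% and 39.0% in wild type. CpG 214 had the highest wild-type level, with 91.2% in the knockout and 49.3% in the wild type. Completeness by CpG ran from 54.4% at CpG 131 to 93.8% at CpG 59, with a median of 73.5%.

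At the IG-TRE the same CpGs were the highest and the lowest in both libraries, and the order of those between differed. CpG 58 was the highest in both, at 96.7% in the knockout and 72.5% in the wild type, and CpG 130 the lowest in both, at 73.7% in the knockout and 52.1% in the wild type. CpG 339 had the largest rise, to 92.3% in the knockout against 60.9% in the wild type (31.4 points, Newcombe interval 22.3 to 40.3, Fisher's exact test, adjusted p = 4.04e-11).

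The CpGs of the IG-TRE that were not called missed the size and not the p. CpG 71 stood at 87.5% in the knockout and 71.2% in the wild type, a difference of 16.3 points and the smallest of the amplicon (interval 10.1 to 22.4, adjusted p = 3.55e-07 by Fisher's exact test). CpG 250 stood at 83.9% in the knockout and 65.1% in the wild type, 18.8 points apart (interval 10.98 to 26.4). Completeness by CpG ran from 45.0% at CpG 130 to 87.8% at CpG 58. With a minimum difference of 30 points, or with identical patterns counted once, 1 CpG was called.

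At the Gtl2-DMR the rise covered the Meg3 promoter from 204 bases upstream of the annotated start to 11 bases downstream of it, with every CpG between called. CpG 71 was the highest of the knockout, at 98.4% against 58.1% in wild type (40.4 points, Newcombe interval 27.1 to 52.8, Fisher's exact test, adjusted p = 4.68e-08). It lies at 109540807 on chromosome 12, 189 bases upstream of the start, within the only match in the window to TGCCGC, the methylated hexamer bound by the imprinting factor Zfp57. The match is on the minus strand, both strands were searched, and 11.6% of all 32851 promoter windows held the hexamer. CpG 91, which lies 169 bases upstream, had 63 of 65 calls methylated in the knockout (96.9%) and 31 of 62 in the wild type.

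The first CpG of the window stood apart from its neighbours by value. CpG 33, at 109540769 and 227 bases upstream of Meg3, stood at 59.4% in the knockout and 45.9% in the wild type (13.5 points, interval -3.92 to 29.8, adjusted p = 0.177 by Fisher's exact test), and was the lowest of the knockout. CpG 56, 23 bases on, stood at 93.8% in the knockout and 59.7% in the wild type. Among mostly methylated reads, 37 of 59 calls at CpG 33 were methylated in the knockout and 25 of 33 in the wild type. The low value was not particular to trunk. In mESC, CpG 33 stood at 62.8% in the knockout and 48.2% in the wild type, the smallest rise of the amplicon there. CpG 56 stood at 86.3% and 51.7%. In tail CpG 33 stood at 39.2% and 37.9%, and CpG 56 at 49.2% and 51.0%.

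The far end of the Gtl2-DMR rested on few calls. CpG 334 had the largest rise and the lowest wild-type level, with 28 of 30 calls methylated in the knockout (93.3%) and 5 of 16 in the wild type (31.3%), 62.1 points apart (interval 33.7 to 79.8, adjusted p = 4.12e-05 by Fisher's exact test). CpG 291 was the highest of the wild type, at 89.7% in the knockout and 82.9% in the wild type, and had the smallest difference, 6.73 points (interval -6.77 to 22.0, adjusted p = 0.375 by Fisher's exact test). CpG 296 stood at 77.8% in the knockout and 63.2% in the wild type on 36 and 19 calls, and CpG 339 at 86.7% and 62.5% on 30 and 16 calls. Neither was called, with adjusted p of 0.366 and 0.0926 by Fisher's exact test, and at this depth a difference of the size seen elsewhere in the amplicon was within both intervals (-9.14 to 39.1 and -0.91 to 49.3).

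**Figure D2:**
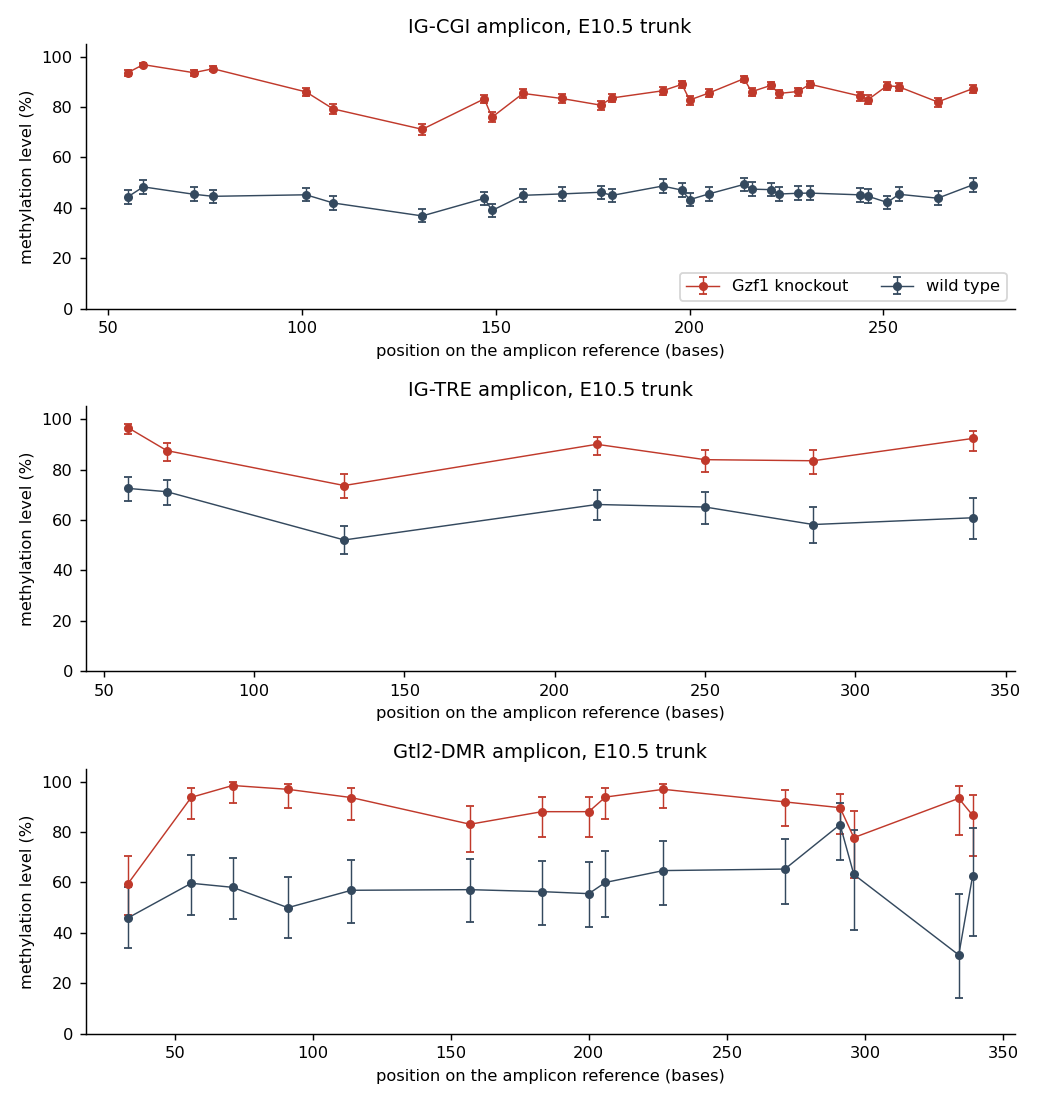
Methylation level in percent (vertical axis) at each CpG against its position on the amplicon reference in bases (horizontal axis), Gzf1 knockout in red and wild type in blue grey, 1 library each. Bars are 95% Wilson intervals. At the IG-CGI the libraries are apart at all 29 CpGs, from 71.2% to 96.8% in the knockout against 36.8% to 49.3% in the wild type, and at the Gtl2-DMR they meet at CpG 33 and from CpG 291 on except at CpG 334.

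The calls along a read were taken to come from 1 molecule, to see whether the added methylation lay on whole copies or was scattered. Whether PCR had joined stretches of different molecules in a read was not tested. The deposited calls give Z for a methylated and z for an unmethylated CpG, and a read can be written as its calls in order. At the IG-TRE, 162 knockout and 116 wild-type reads were called at every CpG, and their 5 most frequent patterns are shown because they hold most of the knockout reads. In the knockout they were
knockout pattern 1: ZZZZZZZ
knockout pattern 2: ZZzZZZZ
knockout pattern 3: ZZZZzZZ
knockout pattern 4: ZzZZZZZ
knockout pattern 5: ZZZZZzZ
with 72, 26, 12, 9 and 8 reads. In the wild type they were
wild-type pattern 1: ZZZZZZZ
wild-type pattern 2: zzzzzzz
wild-type pattern 3: ZZzZZZZ
wild-type pattern 4: ZZzZZZz
wild-type pattern 5: ZZzZZzz
with 30, 10, 5, 4 and 4 reads. Every leading pattern of the knockout had at most 1 unmethylated CpG, and the most frequent such gap was at CpG 130. The fully unmethylated pattern had 10 of 116 wild-type reads and 0 of 162 knockout reads, which allows a share of up to 1.85%. The knockout reads held 23 distinct patterns and the wild-type reads 47.

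At the IG-CGI 1386 knockout and 977 wild-type reads were called at all 29 CpGs. The most frequent patterns of the libraries were the opposite ends of the range, and they are printed because they differ at every CpG.
most frequent in the knockout: ZZZZZZZZZZZZZZZZZZZZZZZZZZZZZ
most frequent in the wild type: zzzzzzzzzzzzzzzzzzzzzzzzzzzzz
The fully methylated pattern had 362 reads in the knockout (26.1%) and 144 in the wild type (14.7%). The fully unmethylated pattern had 0 reads in the knockout (a count of 0 allows up to 0.216%) and 231 in the wild type (23.6%). The second pattern of the knockout, chosen after the values were seen, had 47 reads (3.39%) and lacked methylation at CpG 131 alone, and the same pattern had 17 reads (1.74%) in the wild type. At the Gtl2-DMR 26 knockout and 15 wild-type reads were complete. The fully methylated pattern led in the knockout, with 6 reads against 1 in the wild type, and the fully unmethylated pattern led in the wild type, with 1 read in the knockout against 3.

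For reads with 5 calls or more, a read counts as mostly methylated from 70% of its calls up and as mostly unmethylated from 30% down. Mostly methylated reads made up 85.4% of knockout and 41.6% of wild-type reads at the IG-CGI, a difference of 43.8 points (Newcombe interval 40.7 to 46.8, Fisher's exact test, p = 3.91e-153). At the IG-TRE they made up 88.0% of knockout and 53.1% of wild-type reads, 34.9 points apart (26.8 to 42.5, p = 5.36e-17 by Fisher's exact test). At the Gtl2-DMR they were 64 of 67 knockout and 33 of 58 wild-type reads, 38.6 points apart (24.3 to 51.7, p = 1.76e-07 by Fisher's exact test).

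Reads with intermediate methylation moved in opposite directions at the IG-CGI and the IG-TRE. The amplicons are not alike in this measure, since the same bounds act on different numbers of calls. The median per read with calls was 29 in both IG-CGI libraries, and 6 in the knockout and 5 in the wild type at the IG-TRE. The part of this in the contrast was not tested. At the IG-CGI they were 10.4% of knockout and 6.68% of wild-type reads (3.72 points, interval 1.76 to 5.62, Fisher's exact test, p = 0.000253). At the IG-TRE they were 9.65% of knockout and 27.5% of wild-type reads (-17.9 points, interval -25.0 to -10.9, Fisher's exact test, p = 6.42e-07). At the Gtl2-DMR they were 2 knockout and 4 wild-type reads (p = 0.415 by Fisher's exact test). Neighbouring CpGs of a read disagreed in 11.7% of pairs in the knockout and 7.84% in the wild type at the IG-CGI, in 20.2% and 25.5% at the IG-TRE, and in 11.99% and 10.05% at the Gtl2-DMR. Such shares depend on the mean level, which differed between the libraries, and were not scaled to it. They therefore do not show which library had the more uniform reads.

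**Figure D3:**
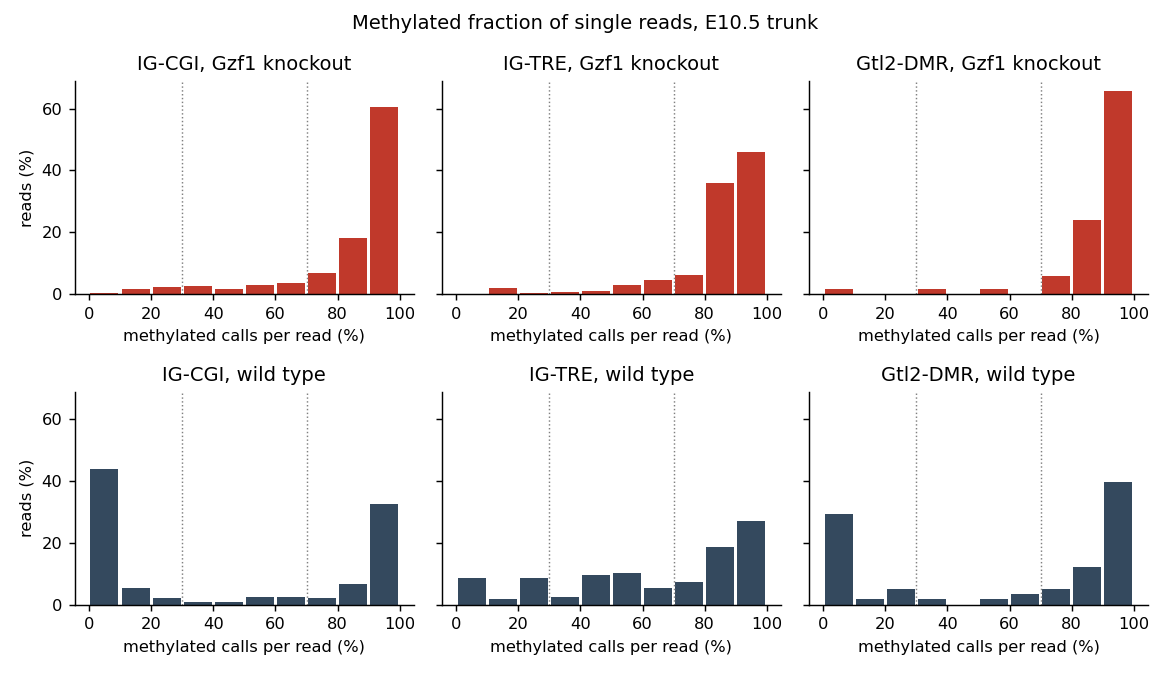
Share of reads in percent (vertical axis) by the percentage of methylated calls in the read (horizontal axis, bins of 10 points), for reads with 5 calls or more, with the Gzf1 knockout in the upper and the wild type in the lower row. Dotted lines mark 30% and 70%. Knockout reads gather at the methylated end of all 3 amplicons, where 60.5% of IG-CGI, 45.9% of IG-TRE and 65.7% of Gtl2-DMR reads were in the top bin, against 32.6%, 27.1% and 39.7% in the wild type.

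The gain can be divided into class shares and levels within classes, as a description only, since the classes are cut from the same calls and a gain of this size moves reads across their bounds however it arises. The mean methylated fraction of a read was 86.0% in the knockout and 45.2% in the wild type at the IG-CGI, and 37.7 of the 40.7 points between them came from the class shares, with 3.01 from levels within the classes. At the IG-TRE the class shares gave 19.7 of 22.0 points. At the Gtl2-DMR they gave 32.9 points, with -0.91 from within the classes.

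Within mostly methylated reads the genotypes were close. The mean level of these reads was 93.4% in the knockout and 94.7% in the wild type at the IG-CGI, 91.7% and 90.3% at the IG-TRE, and 92.3% and 91.7% at the Gtl2-DMR. Each held a mean of 1.87 unmethylated CpGs in the knockout and 1.48 in the wild type at the IG-CGI, 0.548 and 0.627 at the IG-TRE, and 1.05 and 1.03 at the Gtl2-DMR. Counted as runs of consecutive unmethylated CpGs in these reads, 77.2% of 2079 runs in the knockout and 84.8% of 646 in the wild type at the IG-CGI were a single CpG. Because the class is defined by the same calls, these values are a description and were not tested.

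The methylation that was still missing lay in different places in the libraries. At the IG-CGI, mostly methylated reads held 40.4% of the unmethylated calls of the knockout, intermediate reads 35.0% and mostly unmethylated reads 24.6%, against 3.98%, 5.52% and 90.5% in the wild type. At the IG-TRE the mostly unmethylated reads held 14.3% of the unmethylated calls in the knockout and 47.9% in the wild type, and at the Gtl2-DMR 16.1% and 79.6%. At the IG-CGI, a run of 5 or more consecutive unmethylated CpGs was found in 302 of 1857 knockout reads (16.3%, Wilson interval 14.7 to 18.0) and in 785 of 1363 wild-type reads (57.6%, 55.0 to 60.2). A run of 10 or more was found in 6.84% of knockout and 53.1% of wild-type reads.

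The knockout IG-CGI reads that stayed mostly unmethylated differed by value from those of the wild type. There were 78 of them (4.20% of reads), against 705 in the wild type (51.7%), and their mean level was 18.7%, against 4.17%. The level of these knockout reads was highest at the start of the amplicon, with methylated calls also further along. CpG 59 was methylated in 60 of 73 calls in these knockout reads (82.2%, Wilson interval 71.9 to 89.3) and in 79 of 683 calls in the wild type (11.6%, 9.38 to 14.2).

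Further along the amplicon the level in these knockout reads was lower, and the wild-type reads stayed at 11.6% or less throughout. CpG 77 was at 68.4% in the knockout and 7.86% in the wild type, CpG 101 at 41.3% and 7.97%, and CpG 131 at 14.5% and 4.91%. At CpG 216 none of 77 calls was methylated in the knockout, against 12 of 689 in the wild type. A smaller second maximum stood at CpG 254, with 25 of 78 calls in the knockout (32.1%, interval 22.7 to 43.0) and 11 of 680 in the wild type (1.62%).

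The same stretch was tracked with reads classed on the remaining CpGs only, from CpG 101 on, so that the first 4 CpGs did not enter the class. Of the 121 knockout reads that were mostly unmethylated from CpG 101 on and called at all 4 of the first CpGs, 61 were methylated at every one (50.4%, Wilson interval 41.6 to 59.2) and 9 at none (7.44%). In the wild type 28 of 679 such reads were methylated at every one (4.12%, 2.87 to 5.90) and 546 at none (80.4%). Among reads between the bounds from CpG 101 on, 117 of 156 knockout (interval 67.7% to 81.1%) and 18 of 60 wild-type reads (19.9% to 42.5%) had all 4 methylated. The stretch was singled out after its values were seen, so these shares carry no test. Reads of mESC and adult tail were not classed in this way. Over all reads, CpG 59 stood at 68.7% in the tail wild type, where the median over CpGs was 51.6%. In the tail knockout it stood at 90.6%, with a median of 81.3%, and was the highest CpG, as in the trunk knockout. In the mESC wild type it stood at 37.2%, with a median of 37.0%. In the mESC knockout it stood at 76.4%, with a median of 71.9%, and CpG 214 was the highest, at 82.1%.

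**Figure D4:**
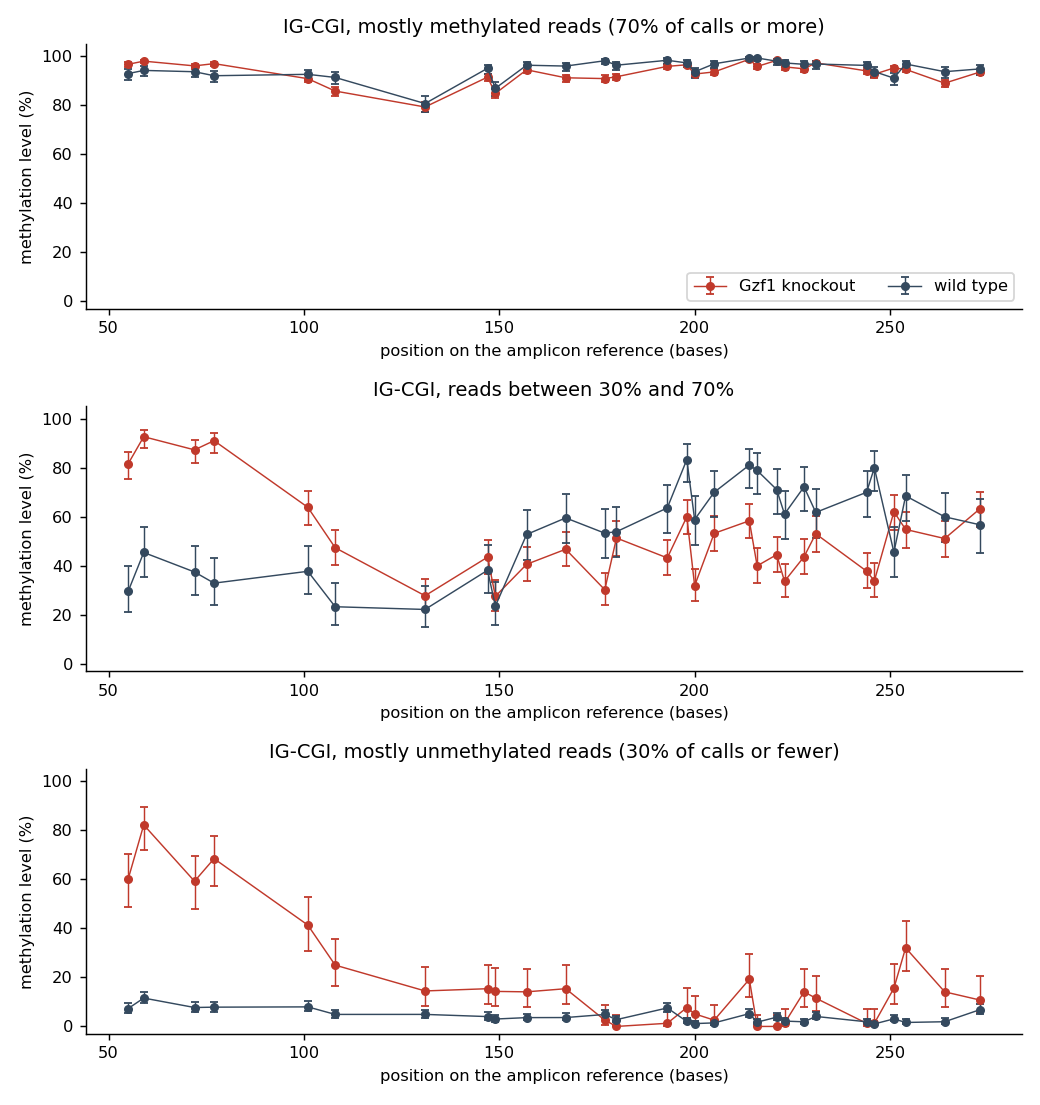
Methylation level in percent (vertical axis) at each IG-CGI CpG against its position in bases (horizontal axis) within mostly methylated reads, reads between 30% and 70% and mostly unmethylated reads, Gzf1 knockout in red and wild type in blue grey. Bars are 95% Wilson intervals. In the mostly unmethylated reads of the knockout CpG 59 is at 82.2% and CpG 101 at 41.3%, against 11.6% and 7.97% in the wild type.

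The trunk was set against the Gzf1 knockout of mESC and adult tail on the same amplicons, with the z test over reads adjusted over the 5 differences in gain. At the IG-CGI and the Gtl2-DMR the mESC and tail libraries were in other sequencing orders than trunk, so that source and order cannot be told apart, and there the knockout and wild-type mESC libraries also came from different orders. All 4 IG-TRE libraries of trunk and mESC were in 1 order. At the IG-CGI the trunk gain of 40.8 points exceeded the 33.7 points of mESC by 7.17 points (95% interval 3.35 to 10.996) and passed the test at 0.05. It exceeded the 28.7 points of tail by 12.1 points (8.62 to 15.6) and passed the test, but it did not pass when each distinct pattern was counted a single time, at -3.12 points (-7.81 to 1.56). Called CpGs of the IG-CGI numbered 27 of 29 in mESC (93.1%) and 29 of 29 in tail (100%).

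At the IG-TRE the trunk gain of 23.1 points was not told apart from the 25.2 points of mESC (difference -2.15, interval -9.00 to 4.70), where 6 of 7 CpGs were called (85.7%). Trunk levels were 86.8% in the knockout and 63.7% in the wild type, and mESC levels 59.0% and 33.8%, so that the trunk was higher by 27.7 points in the knockout (24.1 to 31.4) and by 29.9 in the wild type (24.1 to 35.7). Completeness was 63.6% in trunk and 38.1% in mESC, 25.5 points apart (16.3 to 34.6). The trunk value was 35.4% with identical patterns counted once, a setting at which the sources were not compared in completeness. By value the gains of single CpGs differed between the sources in both directions. The gain was smaller in trunk than in mESC at CpG 58 (24.1 against 43.8 points), CpG 71 (16.3 against 32.3) and CpG 250 (18.8 against 32.5). CpG 286 went the other way, with 83.5% in the knockout and 58.2% in the wild type of trunk, and 29.8% and 32.5% in mESC. At the remaining CpGs the gains were closer.

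At the Gtl2-DMR the trunk gain of 30.8 points was not told apart from the 24.7 points of mESC (difference 6.12, interval -10.5 to 22.7), where 11 of 15 CpGs were called (73.3%). It exceeded that of tail, where the knockout stood at 48.3% and the wild type at 51.2%, by 33.7 points (18.7 to 48.6) and passed the test. In tail 0 of 15 CpGs were called (0%). The title of that tail knockout library names the wild type as well as the knockout, so its genotype is less certain. Completeness at the IG-CGI was 74.3% in trunk, 53.2% in mESC and 59.6% in tail, and the trunk exceeded mESC by 21.1 points (17.6 to 24.7) and tail by 14.7 points (10.8 to 18.6). With identical patterns counted once, trunk completeness was 54.4% and the trunk gain minus the tail gain was -3.12 points. Completeness was not compared between sources at that setting.

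Fully methylated reads moved in opposite directions in trunk and mESC at the IG-CGI and the IG-TRE, but not at the Gtl2-DMR. At the IG-CGI they made up 26.3% of knockout and 14.4% of wild-type reads in trunk (difference 11.9 points, Newcombe interval 9.13 to 14.6), and 7.53% of knockout and 13.8% of wild-type reads in mESC (-6.27 points, -8.61 to -4.05). At the IG-TRE they made up 45.9% of knockout and 27.1% of wild-type reads in trunk (18.9 points, 10.1 to 27.2), and 9.55% of knockout and 15.8% of wild-type reads in mESC (-6.22 points, -11.9 to -0.78). At the Gtl2-DMR they made up 37.3% of knockout and 24.1% of wild-type reads in trunk (13.2 points, -3.13 to 28.3), and 31.5% of knockout and 25.9% of wild-type reads in mESC (5.67 points, -9.13 to 18.9). In tail they made up 23.2% of knockout and 19.7% of wild-type reads at the IG-CGI (3.47 points, 0.65 to 6.31), the direction of trunk. At the Gtl2-DMR of tail they made up 13.8% and 16.9% (-3.14 points, -11.9 to 6.20). The differences between these changes were not tested. Reads without any methylated call were not found in the trunk knockout at the IG-CGI and the IG-TRE, with 0 of 1857 and 0 of 259 reads, which allows shares of up to 0.162% and 1.16%, against 24.1% and 8.70% of the trunk wild-type reads. In mESC they made up 5.96% of knockout and 44.5% of wild-type reads at the IG-CGI, and 8.28% of knockout and 43.8% of wild-type reads at the IG-TRE. In tail they made up 3.03% of knockout and 10.51% of wild-type reads at the IG-CGI.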

How the data were processed

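Genomic DNA was bisulfite-converted (Zymo EZ DNA Methylation-Lightning), amplified by nested PCR and sequenced on the Oxford Nanopore platform, per the labels' protocols. Bisulfite does not separate 5-methylcytosine from 5-hydroxymethylcytosine. The deposited files hold 1 call, Z or z, per read and CpG and, per the file headers, were written by version 0.22.3 of the extractor of Bismark. Bismark 0.24.2 and the build mm10 are named in the submitters' processing notes, without settings. Conversion was not checked, since calls at cytosines outside CpGs were not used here.

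A position counted as a CpG of an amplicon when called in at least 10% of the reads of a library, and CpGs needed 10 calls in both libraries. Mean levels and gains had linearised variances over reads, shares had Wilson and differences of shares Newcombe intervals, and 3 counts set the limit where none was seen. Positions of Meg3 come from RefSeq, with distances counted from its first annotated base as 0. Named CpGs are those with the largest and smallest rise, the extreme levels and those not called; others were added after seeing values. The CpGs, amplicons and comparisons were chosen with earlier results of these data known. Alternatives changed the minimum of calls, the minimum difference, the read class bounds, the positions and reads used, and the weight of identical patterns. The tests were checked on simulated reads drawn independently, without PCR copies, so the check does not cover repeated reads. Software was Python 3.11.15, numpy 2.4.6, scipy 1.17.1 and matplotlib 3.10.9.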

Additional observations from a re-analysis of the deposited data

Results flagged for a closer look

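The gain, Gzf1 knockout minus wild type, differed between the libraries of trunk and of another source in 3 tests. At the IG-CGI the gain in trunk exceeded that in mESC by 7.17 points, and that in adult tail by 12.1 points, which became -3.12 points (-7.81 to 1.56) with identical patterns counted once. At the Gtl2-DMR the gain in trunk exceeded that in adult tail by 33.7 points, where the title of the tail knockout library names the wild type as well. Each value compares 4 libraries, 1 per genotype and source, and the part of the sequencing order in these differences was not tested.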

How the results depend on the processing

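Over 13 alternatives, 152 of 160 values kept their direction and their side of the threshold or stayed within their interval or count range. Some of the 152 could not change. Lowering the minimum of calls altered no value, because every CpG had 16 calls or more. Raising it altered no gain at the IG-CGI or the IG-TRE. Using every position with calls altered no gain. A difference not told apart also counted as kept while its direction held. The IG-CGI gain minus the Gtl2-DMR gain was 10.03 points, and 0.60 with only reads called at every CpG. The count therefore overstates how far the results were challenged. The mean gain stayed positive in trunk at all 3 amplicons, with ranges of 25.7 to 40.9 points (IG-CGI), 15.6 to 25.2 points (IG-TRE) and 27.9 to 39.2 points (Gtl2-DMR). With identical patterns counted once, completeness was 54.4% at the IG-CGI and 35.4% at the IG-TRE, and 1 CpG of the IG-TRE was called, as also with a minimum difference of 30 points. Counting patterns once also turned 3 differences in gain round, to -2.27 points for the IG-CGI minus the Gtl2-DMR, 4.09 for the IG-TRE in trunk minus mESC and -3.12 for the IG-CGI in trunk minus tail. With only reads called at every CpG, the IG-TRE in trunk minus mESC was 2.15 points. Counting patterns once removes PCR copies and also equal molecules, of which fully methylated or unmethylated reads are the most frequent, and the parts of these were not tested. No paired analysis was possible because each group had 1 library. The Gtl2-DMR depth, 16 to 67 calls per CpG, limits its single CpGs.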
